A study of Mus musculus with 12 samples.

Results

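The 10 genes described here are the subunits of the transcription factor NF-kB (Nfkb1, Nfkb2, Rel, Rela and Relb) and a set of its inhibitors (Nfkbia, Nfkbib, Nfkbie, Nfkbiz and Tnfaip3). They were chosen by symbol, with earlier results of these data known. All 10 were found among the 35496 genes of the count table, and all 10 were among the 19497 genes with enough reads to be tested. The tissue was cochlea (the snail-shaped hearing organ) from FVB/NCrl mice at postnatal day 60. Awake animals spent 30 minutes at 70 dB SPL (labelled ambient), 94 dB SPL or 105 dB SPL, and RNA was taken at once afterwards. Each exposure had 4 libraries, 12 in all. The labels name no mutation or drug, and the 70 dB group went through the same 30 minutes as the others. Whether each library holds RNA of 1 animal or of several is not stated, so p-values reflect spread between libraries that may be partly technical.

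NF-kB is a family of dimers built from RelA, RelB, c-Rel, p50 (cut from the Nfkb1 product) and p52 (cut from the Nfkb2 product). In the canonical pathway, IkB proteins such as IkBα (Nfkbia) hold the dimers in the cytoplasm until the IKK kinase marks them for destruction; in the non-canonical pathway, the p100 precursor made from Nfkb2 is processed and p52 pairs with RelB. Nfkbia, Nfkb2, Relb and Tnfaip3 are textbook targets of NF-kB itself, and the products of Nfkbia and Tnfaip3 limit the pathway in turn. In the cochlea the pathway is known for its part in the inflammatory response to loud sound. Many signals besides NF-kB, glucocorticoids among them, are also known to raise Nfkbia RNA.

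Libraries held 31141706 to 42317781 counts in the 70 dB group, 32302796 to 38733490 in the 94 dB group and 32057388 to 40239711 in the 105 dB group. Levels are given as CPM, the usual depth-scaled read counts, after TMM scaling of library sizes. The tissue label was checked against 10 hair cell markers, which were detected in every library and summed to 116 to 131 CPM at 70 dB, 115 to 126 CPM at 94 dB and 115 to 124 CPM at 105 dB; the lowest was Slc26a5, the outer hair cell motor protein, at 0.142 to 0.558 CPM. At 94 dB, replicates 3 and 4 differed from replicates 1 and 2. Mitochondrial genes held 2.68% and 2.73% of their counts, against 3.53% and 3.59% in replicates 1 and 2, and haemoglobin genes held 2.90% and 2.95%, against 1.75% and 2.07%. The mitochondrial share was 5.08% to 5.68% at 70 dB and 4.43% to 5.35% at 105 dB, above all 4 libraries at 94 dB, and its part in the results was not tested. Across genes, the fold changes at 94 against 70 dB followed the GC content of the transcripts (Spearman's rho 0.523), more than those at 105 against 70 dB did (0.0988). These figures describe genes in shared libraries and are no test. For the 10 genes, values at 94 against 70 dB are therefore also given without replicates 3 and 4 at 94 dB and after removal of the GC and length trend.

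Nfkbia, the gene of the main NF-kB inhibitor, rose by 1.11 on the log2 scale at 94 dB and by 1.16 at 105 dB. As reported, the subunit genes Relb and Nfkb2 rose at 94 dB and were lower at 105 than at 94 dB, and the other 7 genes passed in no comparison. The rise of Nfkb2 did not pass without replicates 3 and 4 at 94 dB, nor with the GC and length trend removed. The same held for the difference between 105 and 94 dB in both genes. At 94 against 70 dB, 3 of the 10 genes passed an adjusted p of 0.05, all of them higher (Nfkbia, Relb and Nfkb2). Of all genes tested, 26.1% passed in that comparison, 13.9% higher and 12.2% lower, so a count of 3 in 10 is near the background. None of the 10 was lower as reported, by DESeq2 or at an unadjusted p under 0.05, and Nfkbib was lower by edgeR once the GC and length trend of each library was removed. At 105 against 70 dB, Nfkbia was the 1 gene of the 10 that passed, against 1.62% of all genes (1.11% higher and 0.508% lower). At 105 against 94 dB, Nfkb2 and Relb passed, both lower, against 17.3% of all genes (8.06% higher and 9.23% lower). The same 3, 1 and 2 genes had groups whose CPM did not overlap; the shares of all genes without overlap were 25.4% at 94 against 70 dB, 10.8% at 105 against 70 dB and 21.3% at 105 against 94 dB. The median log2 fold change over the 10 genes was 0.21, 0.12 and -0.03 for these comparisons in that order, and over all genes tested it was -0.018, -0.0039 and 0.0015. Comparisons with 70 dB share the same 4 libraries at 70 dB, so their values are set side by side without a measure of likeness. In bulk tissue, fewer cells of a type and less RNA per cell cannot be told apart.

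**Figure D1:**
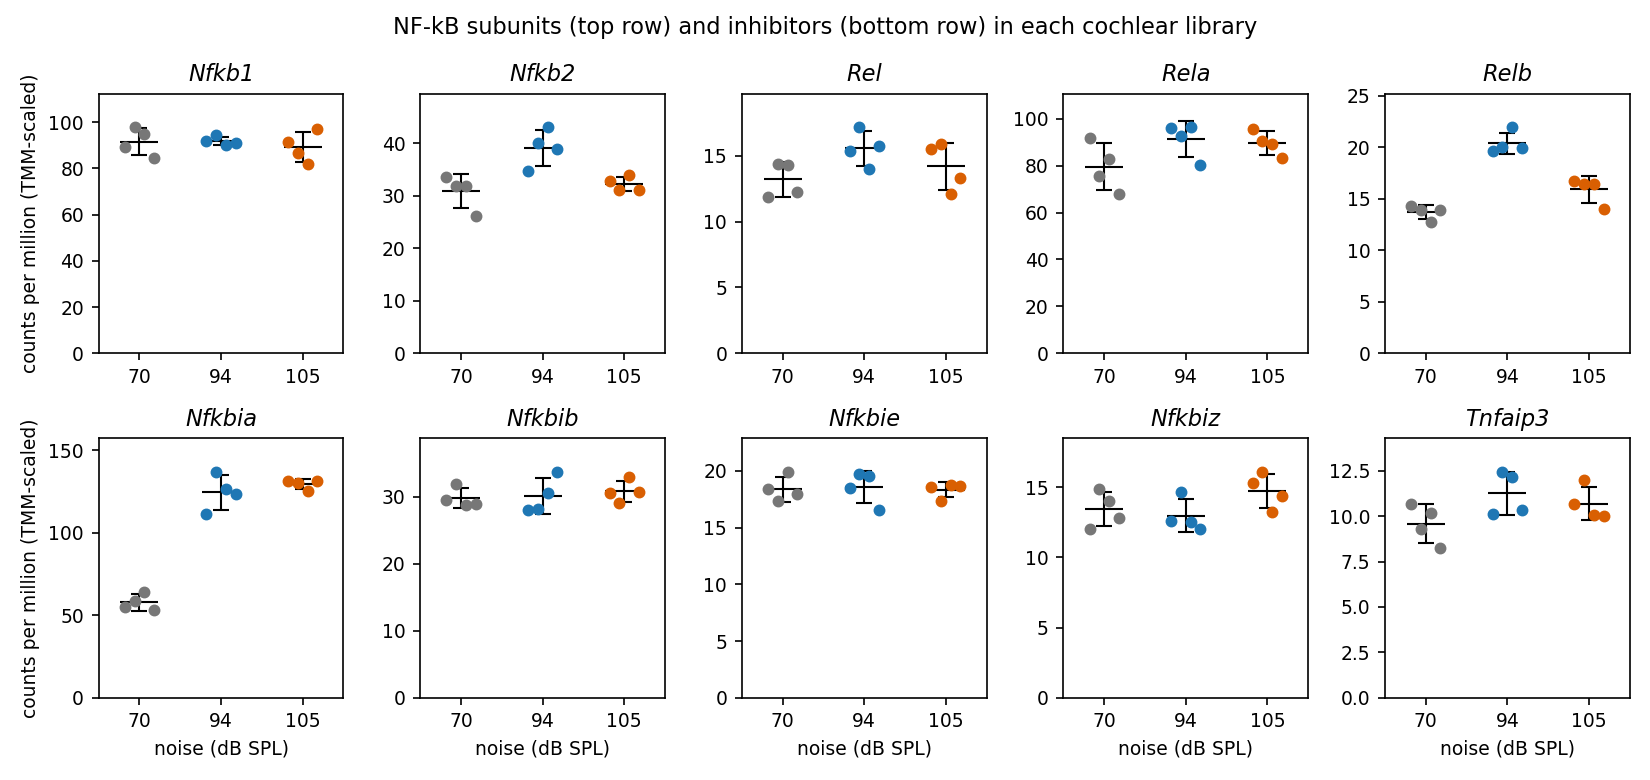
CPM of each of the 10 genes in each of the 12 libraries (points; 4 per exposure, in dB SPL on the horizontal axis), with a long line at the group mean and bars of 1 SD; each panel has its own vertical axis, from 0. Nfkbia lies between 53.1 and 64.4 CPM at 70 dB, between 111 and 137 CPM at 94 dB and between 125 and 132 CPM at 105 dB, while Relb and Nfkb2 are highest at 94 dB.

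Nfkbia (ENSMUSG00000021025, 1610 exon bases, minus strand of mm10 chr12:55489410-55492647) encodes IkBα, the inhibitor that is degraded and remade fastest in the canonical pathway. Its CPM was 55.2, 58.5, 64.4 and 53.1 at 70 dB in replicates 1 to 4, and 111, 137, 127 and 124 at 94 dB. At 105 dB it was 131, 130.2, 125 and 132 CPM. Every library at either noise level was above every library at 70 dB, and the 105 dB libraries lay inside the range of the 94 dB libraries. The mean was 125 ± 10.5 CPM at 94 dB and 57.8 ± 4.96 CPM at 70 dB (SD, n = 4 each), a fold of 2.16 (log2 1.11, SE 0.075, 95% interval 0.95 to 1.27, edgeR adjusted p = 2.14e-07). At 105 dB the mean was 129.6 ± 2.93 CPM (SD, n = 4), a fold of 2.24 over 70 dB (log2 1.16, SE 0.075, 95% interval 1.01 to 1.32, edgeR adjusted p = 2.05e-07). Its p at 105 dB was rank 1 of the 19497 genes, and at 94 dB it was rank 4. Between 105 and 94 dB the log2 difference was 0.06 (95% interval -0.10 to 0.21, edgeR adjusted p = 0.651), which leaves room for a small difference in either direction. Both rises passed under all 21 alternative settings, with log2 fold changes of 0.89 to 1.17 at 94 dB and 1.07 to 1.23 at 105 dB. Without replicates 3 and 4 at 94 dB the value at 94 dB was 1.11 (edgeR adjusted p = 8.85e-06).

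The promoter of Nfkbia is shown because Nfkbia had the largest fold changes from 70 dB of the 10 genes. RefSeq windows of 300 bases (250 before and 50 after each annotated start, build GRCm38.p6, the assembly also called mm10) matched 7 of the 10 genes; Nfkb1, Relb and Nfkbiz were not matched. The 250 bases before the Nfkbia start (chr12:55492648-55492897, minus strand, from RefSeq) read as follows, with a match to the NF-kB (kB) consensus in capitals.
Nfkbia: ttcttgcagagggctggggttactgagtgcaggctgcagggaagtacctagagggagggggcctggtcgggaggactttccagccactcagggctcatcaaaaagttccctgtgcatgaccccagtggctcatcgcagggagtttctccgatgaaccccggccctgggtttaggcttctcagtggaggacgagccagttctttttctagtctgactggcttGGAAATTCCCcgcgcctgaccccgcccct

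The kB consensus was searched on both strands and was found in the windows of 4 genes, Nfkbia, Nfkb2, Rel and Tnfaip3, of the 7 with a window. Of all 32851 windows 5.8% held it, and 6.55% of 27025 genes had it in at least 1 window. The matches are set out here with 10 bases on each side. Capitals mark the 10 matched bases, and each run is 5′ to 3′ on the strand of its gene. The consensus searched was GGGRNYYYCC, where R is A or G, Y is C or T and N is any base. The Nfkb2 runs match it as written, and those of Nfkbia, Tnfaip3 and Rel match it on the opposite strand. Columns of these 2 sets therefore do not line up the same positions of the consensus.
Nfkbia: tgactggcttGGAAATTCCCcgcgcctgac
Tnfaip3: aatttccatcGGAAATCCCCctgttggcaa
Rel: cgtaagcagcGGGAAATCCCcccccctccc
Nfkb2, first match: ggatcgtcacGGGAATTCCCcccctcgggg
Nfkb2, second match: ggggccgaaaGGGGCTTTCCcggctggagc
Nfkb2, last match: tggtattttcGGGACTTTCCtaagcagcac
With the annotated start counted as position 0, the match began at -29 in Nfkbia (chr12:55492657-55492686, minus strand), -12 in Tnfaip3 (chr10:19015403-19015432, minus strand) and -92 in Rel (chr11:23771042-23771071, minus strand). The Rel run holds another match that overlaps it by all but 1 base, at -91. In Nfkb2, on the plus strand, the first match began at -39 (chr19:46304688-46304717) and the second at -11 (chr19:46304716-46304745) of the same start. The last (chr19:46305695-46305724) lay at 10 after another annotated start of Nfkb2, and at -225 of one more. The CRE, TGACGTCA, was found in none of the windows of these 7 genes and in 1.79% of all windows. The AP-1 site, TGANTCA, was found in those of Nfkb2, Nfkbie and Tnfaip3 and in 7.81% of all windows. A match describes letters in a window and nothing more.

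As reported, Nfkbib, Nfkbie, Nfkbiz and Tnfaip3 did not pass in any of the 3 comparisons; Nfkbib and Tnfaip3 passed in some once the GC and length trend was removed. Nfkbib (IkBβ, a cytoplasmic inhibitor with slower turnover; ENSMUSG00000030595, minus strand of chr7:28758251-28767512) ranged from 28.8 to 31.9 CPM at 70 dB, 28.1 to 33.7 CPM at 94 dB and 29.1 to 32.9 CPM at 105 dB. The log2 difference from 70 dB was 0.02 at 94 dB (edgeR adjusted p = 0.898) and 0.05 at 105 dB (0.765). With the trend removed, Nfkbib was lower at 94 than at 70 dB (log2 -0.29, edgeR adjusted p = 0.00543) and higher at 105 than at 94 dB (0.27, 0.0126). Of its exon bases 16.4% overlap Ccer2 or Sirt2 on the other strand, and whether reads were counted by strand is not stated, so reads from these genes cannot be told apart there. Nfkbie (IkBε, another cytoplasmic inhibitor; ENSMUSG00000023947, plus strand of chr17:45555703-45563169) was at 17.3 to 19.9 CPM at 70 dB, 16.6 to 19.7 CPM at 94 dB and 17.4 to 18.8 CPM at 105 dB. Its log2 difference from 70 dB was 0.01 at 94 dB (edgeR adjusted p = 0.917) and -0.0039 at 105 dB (0.985).

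Nfkbiz (IkBζ, a nuclear IkB protein that acts with p50 on selected genes; ENSMUSG00000035356, minus strand of chr16:55811375-55838899) had 12.1 to 14.9 CPM at 70 dB, 12.005 to 14.7 CPM at 94 dB and 13.2 to 16.1 CPM at 105 dB. All 3 groups overlapped, with log2 differences from 70 dB of -0.05 at 94 dB (edgeR adjusted p = 0.736) and 0.13 at 105 dB (0.494). Tnfaip3 (A20, a ubiquitin-editing enzyme that shuts off signalling upstream of IKK; ENSMUSG00000019850, minus strand of chr10:19000910-19015657) had 10.7, 9.27, 10.2 and 8.25 CPM at 70 dB in replicates 1 to 4, and 10.1, 12.4, 12.1 and 10.3 CPM at 94 dB. At 105 dB it had 10.7, 12.01, 10.1 and 10.01 CPM. The groups overlapped, although the mean was above that at 70 dB at both levels. The log2 difference was 0.23 at 94 dB (95% interval -0.0017 to 0.46, edgeR adjusted p = 0.133) and 0.15 at 105 dB (95% interval -0.08 to 0.39, edgeR adjusted p = 0.467). With the trend removed, the value at 94 dB was 0.35 and passed (edgeR adjusted p = 0.0372). Tnfaip3 was the most thinly counted of the 10 genes, with at least 263 reads per library, where counting error alone is 6.17%. Over the 5 inhibitors the median log2 fold change was 0.02 at 94 dB and 0.13 at 105 dB.

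**Figure D2:**
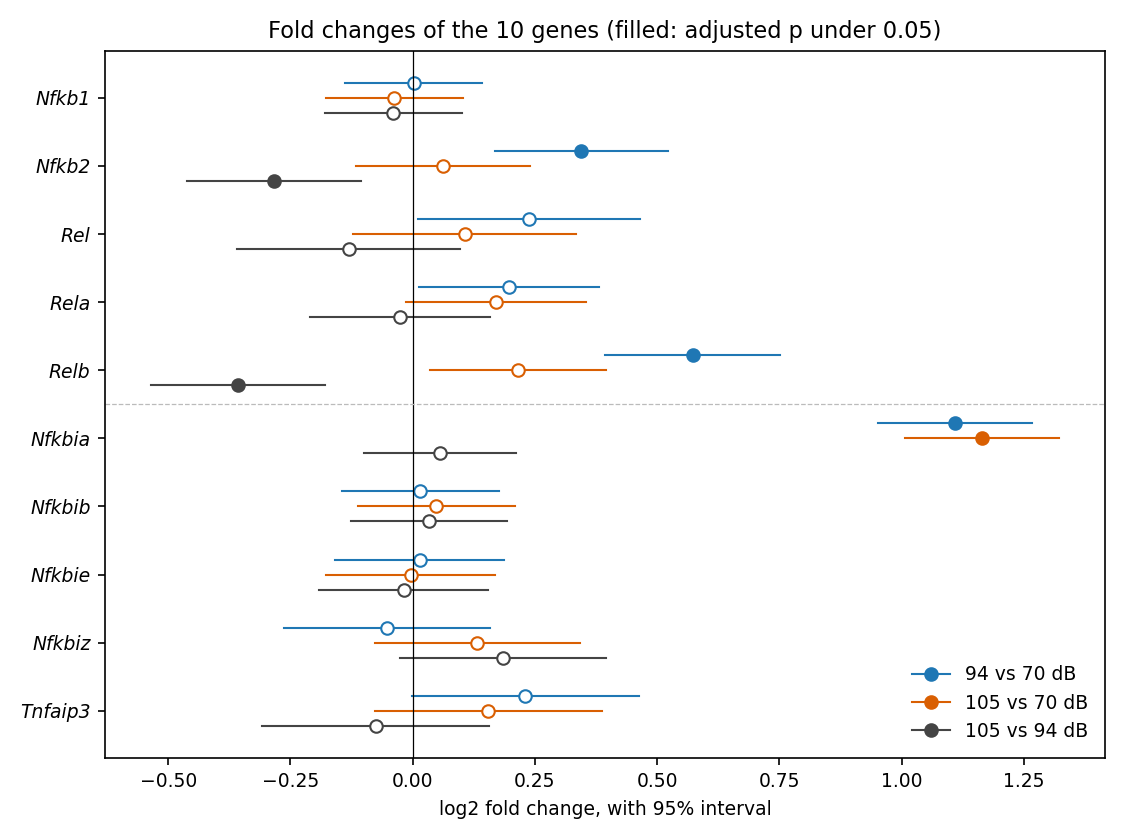
Log2 fold change of each of the 10 genes with its 95% interval in each comparison; filled points passed an adjusted p of 0.05. Nfkbia lies near 1.11 at 94 against 70 dB and 1.16 at 105 against 70 dB and near 0.06 at 105 against 94 dB, and Relb and Nfkb2 are the filled points below 0 at 105 against 94 dB.

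Relb (ENSMUSG00000002983, minus strand of chr7:19606217-19629438) encodes RelB, the partner of p52 in the non-canonical pathway. It had 14.3, 13.9, 12.7 and 13.9 CPM at 70 dB in replicates 1 to 4, and 19.6, 20.03, 21.9 and 19.9 CPM at 94 dB. At 105 dB it had 16.7, 16.5, 16.5 and 14.0 CPM. The 94 dB libraries were above all others, while 1 library at 105 dB, replicate 4, fell within the range at 70 dB. The mean was 20.4 ± 1.05 CPM at 94 dB and 13.7 ± 0.683 CPM at 70 dB (SD, n = 4 each), a fold of 1.49 (log2 0.57, SE 0.085, edgeR adjusted p = 2.78e-04). It passed under all 21 alternative settings, with log2 values of 0.42 to 0.60, including 0.54 without replicates 3 and 4 at 94 dB (edgeR adjusted p = 0.00610). At 105 dB the mean was 15.9 ± 1.29 CPM (SD, n = 4), and the log2 difference from 70 dB was 0.21 (95% interval 0.04 to 0.39), which did not pass (edgeR adjusted p = 0.192) and passed under none of the 21 alternatives (0.108 to 0.385). Relb was lower at 105 than at 94 dB, with a log2 difference of -0.36 (95% interval -0.54 to -0.18, edgeR adjusted p = 0.00986). That difference did not pass without replicates 3 and 4 at 94 dB (-0.32, edgeR adjusted p = 0.119) or once the GC and length trend was removed (-0.20, edgeR adjusted p = 0.120).

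Nfkb2 (ENSMUSG00000025225, plus strand of chr19:46304320-46312385) encodes p100, the precursor of p52 and itself an inhibitor of RelB. It had 33.5, 31.9, 31.8 and 26.1 CPM at 70 dB in replicates 1 to 4, and 34.7, 40.1, 43.0 and 38.9 CPM at 94 dB. At 105 dB it had 32.7, 31.1, 33.9 and 31.04 CPM. The lowest library at 94 dB was just above the highest at 70 and at 105 dB, and the 105 and 70 dB groups overlapped. The mean was 39.2 ± 3.43 CPM at 94 dB and 30.8 ± 3.23 CPM at 70 dB (SD, n = 4 each), a fold of 1.27 (log2 0.34, SE 0.084, edgeR adjusted p = 0.00727). This call was lost without replicates 3 and 4 at 94 dB (log2 0.28, edgeR adjusted p = 0.0957) and once the GC and length trend was removed (log2 0.12, edgeR adjusted p = 0.255). At 105 dB the log2 difference from 70 dB was 0.06 (edgeR adjusted p = 0.732). Nfkb2 was lower at 105 than at 94 dB (log2 difference -0.28, edgeR adjusted p = 0.0294), a call lost when any 1 of 6 libraries was left out: replicates 2, 3 and 4 at 94 dB (edgeR adjusted p = 0.0549, 0.107 and 0.0622) and replicates 1, 2 and 4 at 105 dB (0.0546, 0.0804 and 0.0824). It was also lost without replicates 3 and 4 at 94 dB together (log2 -0.22, edgeR adjusted p = 0.278) and once the GC and length trend was removed (log2 -0.05, edgeR adjusted p = 0.716). Of its exon bases 18.1% overlap Psd or AC114539.1 on the other strand, and reads there cannot be told apart if strand was not used.

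Rela (ENSMUSG00000024927, plus strand of chr19:5637483-5648130) encodes p65, the subunit that carries most of the activating function of canonical dimers. It had 91.9, 75.6, 82.9 and 68.0 CPM at 70 dB in replicates 1 to 4, and 96.0, 92.6, 96.3 and 80.2 CPM at 94 dB. At 105 dB it had 95.6, 90.4, 89.2 and 83.3 CPM. All groups overlapped, and the spread was widest at 70 dB. The log2 difference from 70 dB was 0.20 at 94 dB (95% interval 0.01 to 0.38, edgeR adjusted p = 0.106) and 0.17 at 105 dB (95% interval -0.01 to 0.35, edgeR adjusted p = 0.301). The first of these depended on the setting. Without replicate 1 at 70 dB it was 0.28 and passed (edgeR adjusted p = 0.0260), and with a replicate block it was 0.20 and passed (0.0321). With the GC and length trend removed it was -0.05 (edgeR adjusted p = 0.705).

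Rel (c-Rel, a subunit best known from lymphocytes; ENSMUSG00000020275, minus strand of chr11:23736847-23770970) had 11.9, 14.4, 14.3 and 12.2 CPM at 70 dB in replicates 1 to 4, and 15.3, 17.2, 14.0 and 15.8 CPM at 94 dB. At 105 dB it had 15.5, 15.9, 12.1 and 13.4 CPM. The groups overlapped, with log2 differences from 70 dB of 0.24 at 94 dB (95% interval 0.01 to 0.47, edgeR adjusted p = 0.115) and 0.11 at 105 dB (edgeR adjusted p = 0.625). Nfkb1 (the p105 precursor of p50; ENSMUSG00000028163, minus strand of chr3:135584655-135691547) differed least from 70 dB of the subunits, at 84.5 to 97.7 CPM at 70 dB, 90.2 to 94.3 CPM at 94 dB and 81.9 to 97.2 CPM at 105 dB. Its log2 difference from 70 dB was 0.00 at 94 dB (95% interval -0.14 to 0.14, edgeR adjusted p = 0.985) and -0.04 at 105 dB (edgeR adjusted p = 0.798). Over the 5 subunits the median log2 fold change was 0.24 at 94 against 70 dB, 0.11 at 105 against 70 dB and -0.13 at 105 against 94 dB.

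The GC content, taken from the longest transcript of each gene, differed among these genes. When the GC and length trend of each library was removed, values at 94 against 70 dB moved down for the GC-rich genes and up for the GC-poor ones. The GC content was 59.4% in Nfkb2 and in Rela, 58.8% in Nfkbib and 56.8% in Relb, and 42.5% in Rel, 44.9% in Nfkb1 and 47.1% in Tnfaip3; Nfkbia was between them at 52.9%. With the trend removed, 6 of the 10 genes passed at 94 against 70 dB. Nfkbia (log2 0.90, edgeR adjusted p = 1.37e-05) and Relb (0.42, 0.00218) passed as before. Rel (0.43, edgeR adjusted p = 0.00787), Tnfaip3 (0.35, 0.0372) and Nfkb1 (0.19, 0.0403) passed as higher, and Nfkbib passed as lower (-0.29, 0.00543). Nfkb2 no longer passed, and Rela stood at -0.05 (0.705), Nfkbie at -0.14 (0.284) and Nfkbiz at -0.04 (0.801). Without replicates 3 and 4 at 94 dB and with the trend kept, Rel stood at 0.30 (edgeR adjusted p = 0.164), Rela at 0.25 (0.137) and Tnfaip3 at 0.24 (0.300), and Nfkb1, Nfkbib, Nfkbie and Nfkbiz lay between -0.08 and 0.06 with none passing. Nfkbia and Relb were the genes that passed at 94 dB under every setting tried; the source of the GC trend was not tested.

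**Figure D3:**
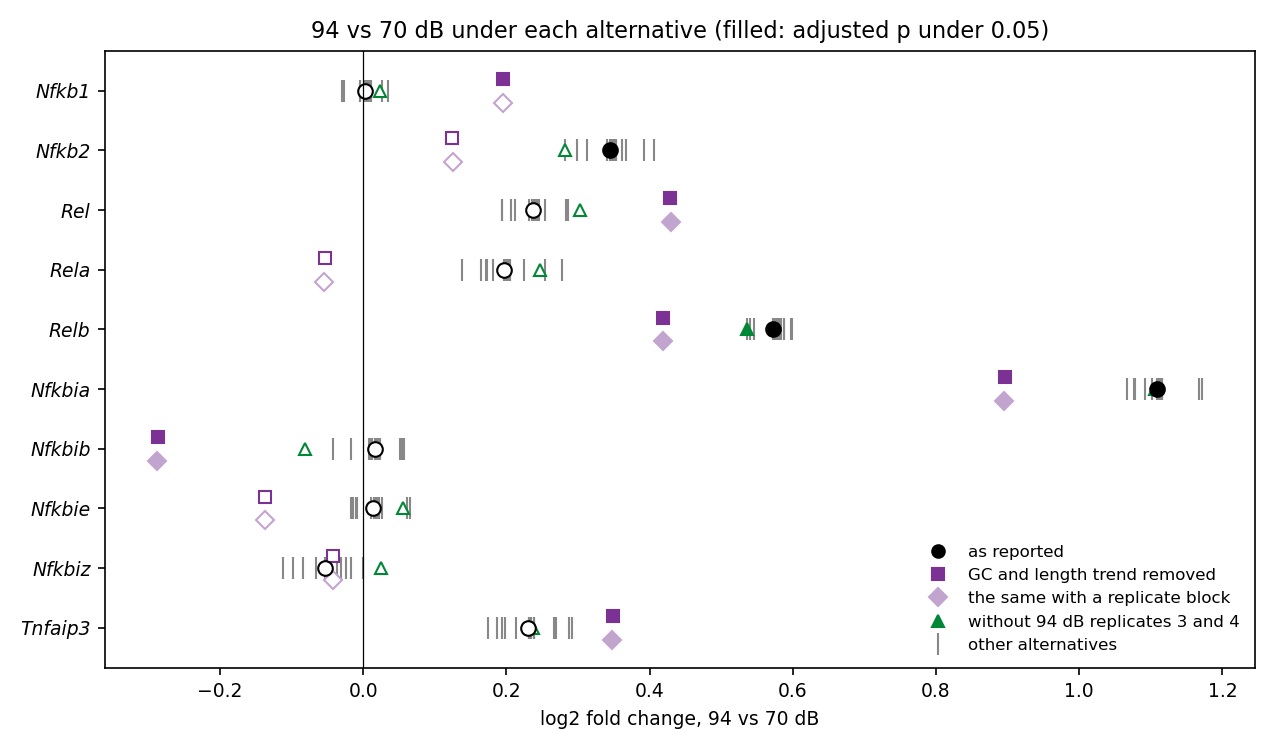
Log2 fold change at 94 against 70 dB of each of the 10 genes as reported (circles), with the GC and length trend removed (squares), the same with a replicate block (diamonds), without replicates 3 and 4 at 94 dB (triangles) and under the other alternatives (ticks); filled symbols other than ticks passed an adjusted p of 0.05. Nfkbia and Relb stay at 0.42 or above and are filled throughout, while Nfkb2 and Rela move left and Rel, Nfkb1 and Tnfaip3 move right when the trend is removed.

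Levels were compared between genes as CPM per kilobase of exon, with the exons of all annotated transcripts of a gene joined. This length can exceed that of the transcripts present, so the order of genes depends on it. Nfkb1 has 12061 such bases and Rela 3072. In plain CPM at 70 dB, Nfkb1 averaged 91.6 and Rela 79.6. At 70 dB, Nfkbia had the highest level, 35.9 ± 3.08 CPM per kb, and Rela the next, 25.9 ± 3.32 (SD, n = 4 each). Nfkbib followed at 13.7 ± 0.681, Nfkb1 at 7.60 ± 0.487, Nfkb2 at 6.72 ± 0.705 and Nfkbie at 6.04 ± 0.36 CPM per kb. The lowest were Relb (3.52 ± 0.176), Nfkbiz (2.68 ± 0.248), Rel (1.77 ± 0.179) and Tnfaip3 (1.33 ± 0.147). The ranges over the 4 libraries overlapped between Nfkb1 and Nfkb2 and between Nfkb2 and Nfkbie, and between no other neighbours in this order. The order was the same at 105 dB, and at 94 dB it differed only in that Nfkb2 (8.54 ± 0.747 CPM per kb) stood above Nfkb1 (7.61 ± 0.147), with ranges that overlapped. Nfkbia reached 77.4 ± 6.52 CPM per kb at 94 dB and 80.5 ± 1.82 at 105 dB, and its distance from Rela, at 29.7 ± 2.47 and 29.2 ± 1.64 CPM per kb in the same groups, widened.

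**Figure D4:**
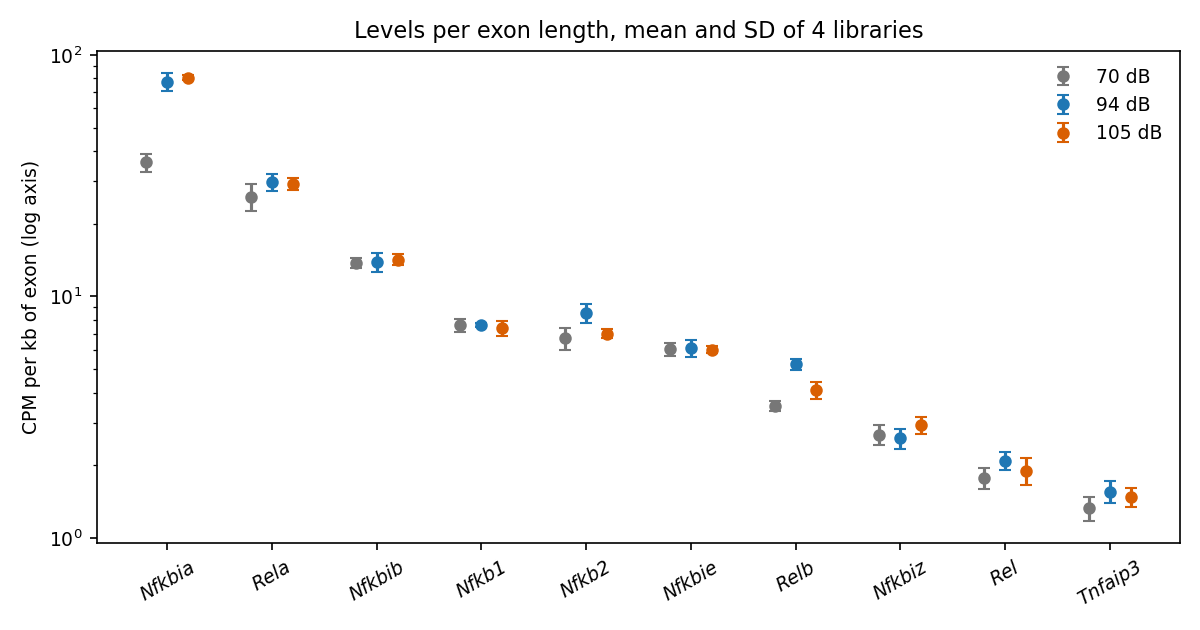
Level of each of the 10 genes per kilobase of exon (CPM per kb, log axis) at 70, 94 and 105 dB; points are means of 4 libraries and bars are 1 SD. Nfkbia and Rela lead in every group, and Tnfaip3 and Rel are lowest at 1.33 to 2.08 CPM per kb on average.

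The balance of inhibitor and subunit RNA is given as a description of these sums, and its size depends on the same joined exon lengths. The RNA of the 3 cytoplasmic inhibitors (Nfkbia, Nfkbib and Nfkbie) per RNA of the 5 subunits, both in CPM per kb, was 1.23 ± 0.0997 at 70 dB, 1.83 ± 0.151 at 94 dB and 2.03 ± 0.0868 at 105 dB (n = 4 each, SD). Every library at 94 dB (1.65 to 1.98) and at 105 dB (1.95 to 2.16) was above those at 70 dB (1.08 to 1.30), and replicates 1 and 2 at 94 dB stood at 1.65 and 1.93. Nfkbia made up 64.4% ± 1.68 of the inhibitor sum at 70 dB, 79.4% ± 1.37 at 94 dB and 79.9% ± 1.01 at 105 dB. Nfkbia RNA per Rela RNA was 1.40 ± 0.168 at 70 dB, 2.62 ± 0.327 at 94 dB (2.21 and 2.82 in replicates 1 and 2) and 2.77 ± 0.172 at 105 dB. Relb was 7.79% ± 0.855 of the subunit sum at 70 dB, 9.87% ± 0.461 at 94 dB and 8.25% ± 0.462 at 105 dB, and its range at 94 dB (9.44% to 10.4%, with 9.44% and 9.52% in replicates 1 and 2) lay above that at 70 dB (6.96% to 8.93%). These are RNA sums and say nothing of protein, which for IkBα is set largely by degradation.

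The counts by list that follow stand against 26.1% of all genes called at 94 against 70 dB (13.9% higher and 12.2% lower) and 1.62% at 105 against 70 dB. Among 10 tested ligands that feed the pathway, 2 rose at 94 against 70 dB (Ltb and Tnfsf11) and 3 fell (Il1a, Il18 and Il33). Ltb, a lymphotoxin chain of the non-canonical route, averaged 38.5 ± 10.4 CPM at 94 dB and 22.2 ± 2.65 CPM at 70 dB (SD, n = 4 each; log2 0.79, edgeR adjusted p = 0.0106), which did not pass without replicates 3 and 4 at 94 dB (0.50, 0.122) or with the trend removed (0.34, 0.123). Tnfsf11 (RANKL) was the 1 ligand that rose at 105 against 70 dB, at 5.11 ± 0.657 CPM at 105 dB and 2.73 ± 0.413 CPM at 70 dB (SD, n = 4 each; log2 0.90, edgeR adjusted p = 0.00562). Tnf, the classical activator, averaged 2.64 ± 0.256 CPM at 70 dB, 2.51 ± 0.242 CPM at 94 dB and 1.52 ± 0.683 CPM at 105 dB; the difference between 105 and 70 dB did not pass (log2 -0.81, edgeR adjusted p = 0.0887). It passed in 5 of 21 alternatives: without replicate 3 at 105 dB, its highest library there (log2 -1.16, edgeR adjusted p = 0.00257), with no filter (-0.80, 0.0498), with the trend removed (-0.92, 0.0418), with that and a replicate block (-0.94, 0.0316) and by DESeq2 (-0.81, 0.0205). Tnf was lower at 105 than at 94 dB (log2 -0.73, edgeR adjusted p = 0.0399), which passed in 10 of 21 alternatives. Il1b averaged 8.01 ± 3.53 CPM at 70 dB, 9.27 ± 1.73 CPM at 94 dB and 9.97 ± 0.284 CPM at 105 dB (edgeR adjusted p = 0.562 and 0.511 against 70 dB).

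Of 15 receptors, a share of 33.3% passed, near that of all genes: 4 rose at 94 against 70 dB (Tnfrsf1a, Tnfrsf1b, Ltbr and Tnfrsf12a), 1 fell (Il1rap) and edgeR called none at 105 against 70 dB (unadjusted p under 0.05 in 2 higher and 0 lower, DESeq2 0 and 0). The largest difference was in Tnfrsf12a, the TWEAK receptor of the non-canonical route, with 39.2 ± 13.0 CPM at 94 dB and 13.9 ± 4.03 CPM at 70 dB (SD, n = 4 each; log2 1.49, edgeR adjusted p = 0.00238); it passed under all 21 settings. Tnfrsf1b (TNF receptor type 2) averaged 47.2 ± 2.63 CPM at 94 dB and 35.9 ± 4.32 CPM at 70 dB (log2 0.39, edgeR adjusted p = 0.00355), and did not pass without replicates 3 and 4 at 94 dB (0.0595). Tnfrsf1a passed in 12 of 21 alternatives at 94 against 70 dB (log2 0.0098, edgeR adjusted p = 0.940 with the trend removed). Il1rap passed there in 17 of 21 (log2 -0.15, edgeR adjusted p = 0.287 with the trend removed). Of 28 genes of the IKK complex, its upstream kinases and its adaptors, 4 rose and 5 fell at 94 against 70 dB (32.1%, against 26.1% of all genes) and edgeR called none at 105 against 70 dB (unadjusted p under 0.05 in 1 higher and 0 lower, DESeq2 1 and 0). Those that fell include Tab3 (log2 -0.46, edgeR adjusted p = 0.00101; -0.27, 0.0182 with the trend removed) and Tab2 (-0.36, 0.00334; -0.22, 0.0687 without replicates 3 and 4 at 94 dB), which link ubiquitin chains to the kinase TAK1, and the ubiquitin ligase scaffold Cul1 (-0.35, 0.00153; -0.23, 0.0107 with the trend removed). Of 20 other regulators, 4 rose and 3 fell at 94 against 70 dB (35%, against 26.1% of all genes) and edgeR called none at 105 against 70 dB (unadjusted p under 0.05 in 1 higher and 0 lower, DESeq2 0 and 0). Among them Pdlim2, a ligase that ends nuclear p65 activity, averaged 51.2 ± 12.02 CPM at 94 dB and 30.7 ± 3.98 CPM at 70 dB (log2 0.74, edgeR adjusted p = 0.00253), and stood at 0.41 without replicates 3 and 4 at 94 dB (0.0276). The NF-kB repressing factor Nkrf averaged 13.0 ± 0.923 CPM at 94 dB and 18.1 ± 1.16 CPM at 70 dB (log2 -0.48, edgeR adjusted p = 0.00126).

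Of 26 textbook NF-kB targets tested, 4 rose and none fell at 94 against 70 dB (Bcl2l1, Vcam1, Irf1 and Icam1), a share of 15.4% higher against 13.9% of all genes. At 105 against 70 dB, 2 rose and none fell (Bcl2l1 and Vcam1), a share of 7.69% higher against 1.11% of all genes. At an unadjusted p under 0.05, 0 were lower at 94 dB and 2 at 105 dB, and DESeq2 called 0 and 1 lower. Bcl2l1, the survival protein Bcl-xL, averaged 128 ± 10.3 CPM at 70 dB, 190.0 ± 5.24 CPM at 94 dB and 167 ± 11.1 CPM at 105 dB (n = 4 each, SD), with log2 values of 0.57 (edgeR adjusted p = 5.94e-05) at 94 dB and 0.39 (0.00655) at 105 dB. Vcam1, an endothelial adhesion molecule, averaged 174 ± 30.4 CPM at 70 dB, 248 ± 21.5 CPM at 94 dB and 236 ± 13.9 CPM at 105 dB; at 94 dB (log2 0.51, edgeR adjusted p = 0.00239) it passed in all 21 settings, and at 105 dB (log2 0.44, edgeR adjusted p = 0.0421) in 12 of 21. Icam1, its companion on endothelium, was higher at 94 than at 70 dB (20.7 ± 1.58 and 16.6 ± 1.77 CPM, log2 0.32, edgeR adjusted p = 0.0233; 0.20, 0.138 with the trend removed) and lower at 105 than at 94 dB (14.8 ± 1.20 and 20.7 ± 1.58 CPM, log2 -0.48, edgeR adjusted p = 0.00437). The cytokine Il6 was near the counting floor, at 0.176, 0.186 and 0.350 CPM on average at 70, 94 and 105 dB, where 3 counts are 0.0703 to 0.0966 CPM. The chemokine Ccl2 averaged 0.952, 0.994 and 1.11 CPM in the same order (edgeR adjusted p = 0.885 at 94 dB and 0.725 at 105 dB). At 94 dB the median log2 fold change was -0.08 over the ligands, 0.16 over the receptors, -0.01 over the IKK group and 0.11 over the other regulators. The median of the targets was 0.12 at 94 dB and 0.084 at 105 dB, against -0.018 and -0.0039 over all genes. Without replicates 3 and 4 at 94 dB, when 1610 of all genes passed, none of the ligands by edgeR (4 at an unadjusted p under 0.05), 1 receptor, 3 of the IKK group, 2 of the other regulators and 3 of the targets passed at 94 against 70 dB, and 2 of the 10 subunits and inhibitors did (Nfkbia and Relb).

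**Figure D5:**
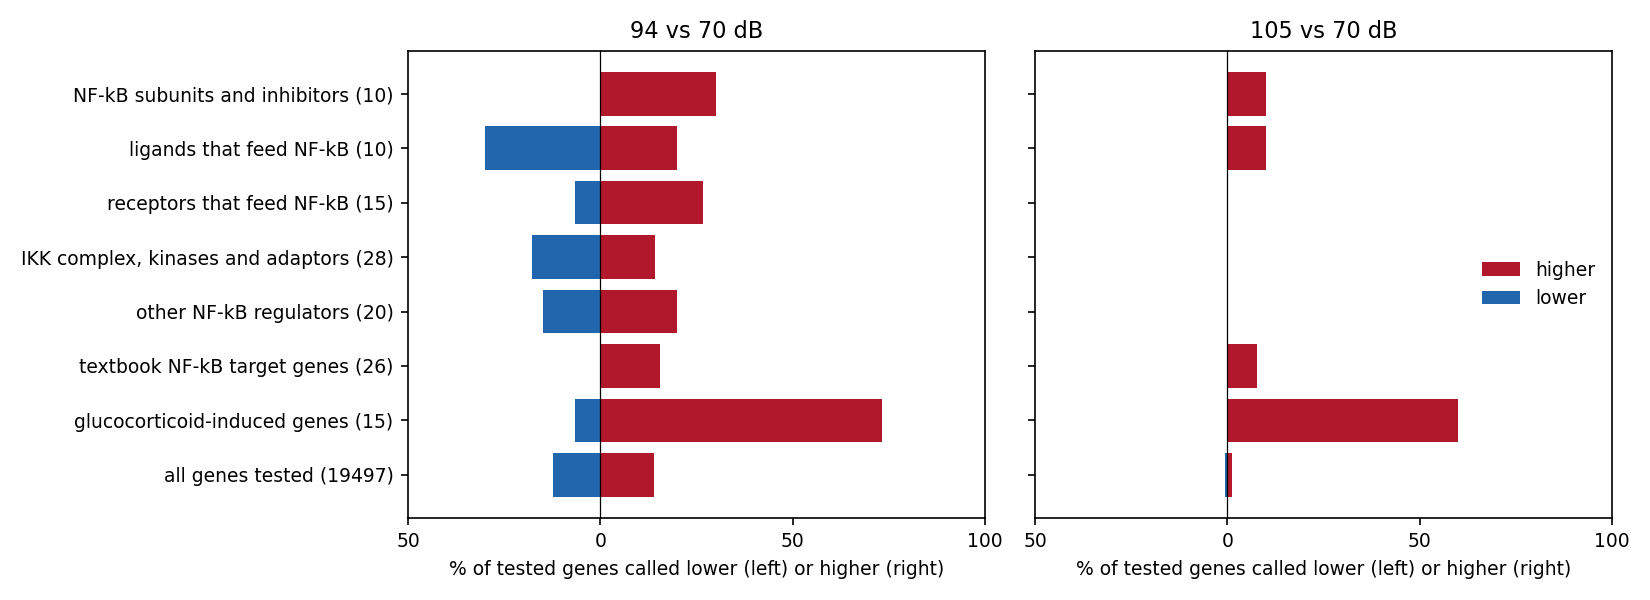
Share of the tested genes of each list (number tested in brackets) that passed an adjusted p of 0.05 as higher (bars to the right) or lower (bars to the left), in % of tested genes, at 94 against 70 dB and at 105 against 70 dB, with all genes tested as the bottom row. The glucocorticoid-induced list has 11 of 15 genes higher at 94 dB and 9 of 15 at 105 dB, and the receptor, IKK and other regulator lists have no bar at 105 dB.

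The genes whose pattern over the 12 libraries was nearest to that of Nfkbia were sought among 14942 genes, by the root-mean-square difference of log2 CPM centred on each gene's own mean. The 5 nearest were Tob2 (0.0724), Sgk1 (0.0986), Errfi1 (0.116), Tcim (0.140) and Zfp36 (0.149), against a median of 0.567 over the genes compared. Tob2, an antiproliferative protein, averaged 49.0 ± 5.02 CPM at 70 dB, 108 ± 3.92 CPM at 94 dB and 107 ± 4.71 CPM at 105 dB (n = 4 each, SD). The subunit and inhibitor genes described here were left out of this search. Their absence from the 5 is therefore no result, and how near they lie to Nfkbia was not tested. Sgk1, Errfi1 and Zfp36 are also in a list of 15 glucocorticoid-induced genes. The list was chosen with earlier results known, and apart from the NF-kB targets no list of genes induced by other signals was compared. Of the 15, 11 rose and 1 fell at 94 against 70 dB, against 13.9% of all genes higher and 12.2% lower. At 105 against 70 dB 9 rose, against 1.11% of all genes higher. The median log2 fold changes were 1.07 and 0.91. Without replicates 3 and 4 at 94 dB, 9 of the 15 passed at 94 dB. Zbtb16 was the 1 gene of that list that fell at 94 dB, and Fkbp5 and Pdk4 passed in neither comparison with 70 dB. The lowest log2 value in the list was -0.81 at 94 dB and -0.81 at 105 dB. At 105 dB edgeR called 0 lower, against 1 at an unadjusted p under 0.05 and 1 by DESeq2. The 4 members with the smallest p were Ddit4 (log2 3.45 at 94 dB and 2.66 at 105 dB), Per1 (2.15 and 1.90), Dusp1 (1.70 and 1.82) and Sgk1 (1.07 and 1.09). Each of these 4 passed against 70 dB under all 21 settings. Nfkbia, at 1.11 and 1.16, is set beside them as a value; what raised its RNA was not tested.

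Markers of blood, immune and supporting cells are given as values. The 9 B cell markers summed to 239 to 283 CPM at 70 dB, 260 to 282 CPM at 94 dB and 251 to 309 CPM at 105 dB. Of them 1 rose (Cd79a) and 1 fell (Ebf1) at 94 against 70 dB (22.2%, against 26.1% of all genes). The 9 T and NK cell markers summed to 42.5 to 54.5 CPM at 70 dB, 48.25 to 68.2 CPM at 94 dB and 52.0 to 59.7 CPM at 105 dB. At 94 against 70 dB 2 of these rose and 0 fell (22.2%). The 12 neutrophil markers summed to 8063 to 9913 CPM at 70 dB, to 8288, 12082, 12535 and 15894 CPM in replicates 1 to 4 at 94 dB, and to 8853 to 10388 CPM at 105 dB. Of them 4 rose at 94 against 70 dB (33.3%, against 13.9% of all genes higher; 1 passed without replicates 3 and 4) and 1 at 105 against 70 dB (8.33%, against 1.11%). The 11 macrophage markers summed to 1533 to 2194 CPM at 70 dB, 1853 to 2805 CPM at 94 dB and 1739 to 2194 CPM at 105 dB, with 4 higher and 1 lower at 94 against 70 dB (45.5%, against 26.1% of all genes). No marker on these lists was at 0 in any library. The 8 erythroid markers summed to 18226 to 22365 CPM at 70 dB, 18906 to 32523 CPM at 94 dB and 22373 to 31505 CPM at 105 dB. The 8 supporting cell markers summed to 1568 to 1694 CPM at 70 dB, 1175 to 1402 CPM at 94 dB and 1501 to 1634 CPM at 105 dB. This sum was lower at 94 dB, without overlap. Of all single genes, 25.4% did not overlap at 94 against 70 dB and 21.3% at 105 against 94 dB. Its largest parts were Gjb2 (491 to 761 CPM) and Gjb6 (400 to 605 CPM). At 94 against 70 dB 3 of the 8 fell (Tecta, Gjb2 and Epyc), which is 37.5% against 12.2% of all genes lower, and 5 were not called. At 105 against 94 dB 3 were higher (Tecta, Gjb2 and Gjb6), which is 37.5% against 8.06% of all genes higher. Without replicates 3 and 4 at 94 dB, edgeR called 2 of the 8 at 94 against 70 dB. It then called 0 at 105 against 94 dB (3 at an unadjusted p under 0.05), when 217 of all genes passed. The part of any of these cell types in the results for Relb, Nfkb2 and the other genes was not tested.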

How the data were processed

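The data are RNA-seq read counts per gene from 12 cochlea libraries. Per the labels' protocols, RNA was extracted in Trizol when the exposure ended, and 1 µg per sample went into Illumina TruSeq RNA libraries. The authors deposited raw counts for 35496 Ensembl genes; per the submitters' processing notes, mm10 was the build, and STAR, CASAVA and featureCounts (1.5.0-p3) were used. Not given in the sources used here are their parameters, the annotation, the handling of multiply aligned reads and whether counting used strand. Symbols, exon lengths and GC content came from GENCODE M21 for 35474 genes. Groups were read from the sample titles.

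Counts were tested with edgeR 4.0.16 in R 4.3.3: filterByExpr (minimum count 10; 19497 genes with 99.9% of counts), TMM factors, and 1 mean per group in 1 robust quasi-likelihood fit over all 12 libraries (9 residual degrees of freedom, biological coefficient of variation 0.133). Adjusted p is Benjamini-Hochberg over the 19497 genes, with a threshold of 0.05. CPM are TMM-scaled, and 3 counts are 0.0703 to 0.0966 CPM; floors and intervals of counts cover counting error only. No 2 libraries were duplicates (within-group r of log2 CPM 0.984 to 0.991). The procedure was tested on simulated data.

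The 10 genes, the pathway and marker lists and the tests were chosen with earlier results of these data known. All 10 genes are named, with the 4 genes per list of smallest p that passed against 70 dB, 6 cytokine and adhesion genes given as values, and the 5 genes nearest Nfkbia among those averaging log2 CPM 1 or more; other listed genes are named where a count is small. The 21 alternatives were no filter, upper-quartile factors, DESeq2 1.42.0, a fit of the compared libraries alone, removal of the GC and length trend, a replicate block, both together, and leaving out libraries. The GC and length trend was a smooth curve in GC content and exon length, fitted in each library to log2 CPM less each gene's mean. It entered the edgeR fit as an offset.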

Additional observations from a re-analysis of the deposited data

Results flagged for a closer look

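In 114 groups of 4 libraries (38 genes in 3 groups), 6 had an extreme library whose gap to its nearest neighbour was a larger share of the whole range than Dixon's 95% critical value, and chance flags about 1 in 20 such groups. Relb was lowest in replicate 4 at 105 dB, at 14.0 CPM, where the next library had 16.5 CPM. Nfkbie was lowest in replicate 2 at 105 dB, at 17.4 CPM, with 18.6 CPM in the next. Tnf was highest in replicate 3 at 105 dB, at 2.54 CPM against 1.22 CPM in the next, and in replicate 1 at 70 dB, at 3.02 CPM against 2.54 CPM. Ltb was highest in replicate 3 at 105 dB, at 30.1 CPM against 21.5 CPM, and Bcl2l1 was lowest in replicate 1 at 94 dB, at 182 CPM against 192 CPM.

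The effects of the noise levels against 70 dB differed for Nfkb2 and Relb, by the direct test of 105 against 94 dB: the log2 difference was -0.28 for Nfkb2 and -0.36 for Relb. Neither difference passed without replicates 3 and 4 at 94 dB, nor with the GC and length trend removed.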

How the results depend on the processing

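All 21 alternatives were run. At 94 against 70 dB, 3 of the 10 genes passed as reported; 6 did with the GC and length trend removed and 5 with that and a replicate block, in both of which Nfkbib reversed to -0.29. All genes called went from 5085 to 3230 without the trend and 1610 without replicates 3 and 4 at 94 dB. At 105 against 70 dB, 316 genes became 523 with no filter, 479 with a replicate block, 667 with the block and no trend, and 891 with DESeq2; leaving out 1 library gave 126 to 399. At 105 against 94 dB, 3372 genes became 1937 without the trend, 2023 with the block as well, and 217 without replicates 3 and 4 at 94 dB, with 1650 to 3798 over single libraries left out. Of the 10 genes, 2 became 1 without the trend, which was Nfkbib, newly higher (log2 0.27, edgeR adjusted p = 0.0126), with Nfkb2 and Relb both lost, and 0 by edgeR without those replicates (2 at an unadjusted p under 0.05); leaving out 1 library gave 1 to 2. Rela reversed there to 0.22 with the block and no trend. The cause of these changes was not tested.

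Replicate numbers did not pair the libraries (r of deviations -0.149 to 0.182; 4 of 12 were nearest their own number). With the block alone, 4, 1 and 2 of the 10 genes passed at 94 against 70, 105 against 70 and 105 against 94 dB, Rela being added in the first (log2 0.20, edgeR adjusted p = 0.0321), and 5084, 479 and 3366 genes in all. Counting error was at most 6.17% per library for these genes.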
